A study of Homo sapiens with 10 samples.

Results

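The miR-3124-5p mimic (miR3124_mimic) was compared with a scrambled miRNA (miRcontrol) in BEAS2B, an immortalized human bronchial epithelial cell line, by mRNA-sequencing. The comparison took in 4 of the 10 libraries of the series, 2 per group, and all genes of these libraries were described. Both groups were transfected at 50 nM with Lipofectamine 2000 and harvested after 48 h; per the labels the miRcontrol cells were wild type and the mimic cells overexpressed miR-3124-5p, with no other allele or agent named. The other groups received a miR-200b-3p mimic, a miR-92b inhibitor or the 3 oligonucleotides together. Their libraries shared the filter, the normalization and the fit that set the spread, and their values entered only where named. One cell line stands for the bronchus here. Whether the libraries of a group came from separate transfections is not given in the sources used here. The p-values therefore measure only the spread between libraries of the same group, taken over all 10 libraries, which may be technical. Sequencing depth was similar, with totals of 17666345 and 16773655 counts for miRcontrol and 14518832 and 17414891 counts for miR3124_mimic. Libraries of one group differed by more than counting error, with a chi-square over degrees of freedom of 2.70 in miRcontrol and 1.77 in miR3124_mimic. Levels are given as normalized CPM, which are counts scaled to the size of the library after correction by edgeR's RLE factors.

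A miRNA is a short RNA that guides an Argonaute protein to messenger RNAs. Pairing rests mainly on the seed, the bases near the 5′ end of the miRNA, and usually lies in the 3′UTR, where TNRC6 proteins bound to Argonaute recruit deadenylases and decapping enzymes that lower the messenger RNA. A mimic is a synthetic duplex that loads the chosen strand into Argonaute. Messenger RNAs with a seed match can then fall, and genes downstream of them can change in either direction. The 2 kinds of change cannot be separated by a single harvest. Mature miRNAs were not measured by these messenger RNA libraries, so the level that the mimic reached is not known. The study examined miR-3124-5p because it was among the miRNAs of exosomes, the small vesicles that cells release, in patients with small cell lung cancer.

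The mature sequences, from RefSeq on GRCh38.p14, are shown because the seed decides which messenger RNAs can pair with the mimic. Bases 2 to 8, the seed, are in capitals, and miR-3124-3p, the other arm of the same hairpin, and miR-200b-3p served for comparison.
miR-3124-5p: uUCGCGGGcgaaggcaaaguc
miR-3124-3p: aCUUUCCUcacucccgugaagu
miR-200b-3p: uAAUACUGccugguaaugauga
The mature miR-3124-5p has 21 bases, of which 13 are G or C, and lies at chr1:248826383-248826403 on the plus strand. None of the 3 seeds is shared. The word of 7 bases in a messenger RNA that pairs with the miR-3124-5p seed is CCCGCGA, in which 6 bases are G or C. It was rare in 3′UTRs: among 12233 tested genes with an annotated 3′UTR, 76 genes (0.621%) carried it, while 2800 genes (22.9%) carried the word of miR-3124-3p, AGGAAAG.

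The 3′UTR matches of the 6 genes with the largest falls are shown first, read 5′ to 3′ on the strand of the gene from GRCh38 and GENCODE v29, with the word in capitals. Only in ACTN1 is the word followed by an A, the base that lengthens the site.
ACTN1, 3′UTR, chr14:68874710-68874716, minus strand: gatcctccctgCCCGCGAagtgacagtt
PIP5K1C, 3′UTR, chr19:3630874-3630880, minus strand: ccctcagatccCCCGCGAgggaggctgc
TMEM184B, 3′UTR, chr22:38221102-38221108, minus strand: agcccctcctcCCCGCGAgactctcagg
RAB7A, 3′UTR, chr3:128813691-128813697, plus strand: acccacatgagCCCGCGAgtatggcagc
SLC25A10, 3′UTR, chr17:81720580-81720586, plus strand: agctgcaactcCCCGCGAgaccccgcag
SEMA6B, 3′UTR, chr19:4543485-4543491, minus strand: ctcaagtccccCCCGCGAcccacccgcg
Matches in coding sequence follow for 5 genes, because SRM and KRT19 have no match in the 3′UTR. The stretch shown for SRM runs over an exon junction, and RPS29 was chosen after its value was seen.
KRT19, coding, chr17:41527871-41527877, minus strand: gcctgggccctCCCGCGActacagccac
SRM, coding, chr1:11059228-11059234, minus strand: agccaccccaaCCCGCGAaaggtgctga
ACTN1, coding, chr14:68877146-68877152, minus strand: tgacttcatgtCCCGCGAgacagccgac
PITX1, coding, chr5:135033760-135033766, minus strand: gcccgccgaccCCCGCGAgccgctcgag
RPS29, coding, chr14:49586311-49586317, minus strand: tactggagccaCCCGCGAaaattcggcc
The sites give positions at which the mimic could pair and do not show that it did.

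After the mimic, 1210 genes of 14884 tested (8.13%) differed from miRcontrol at least 2-fold with an adjusted p under 0.05 (edgeR's quasi-likelihood F test, p-values adjusted by Benjamini and Hochberg), and these are the genes named as called. Of these, 800 (5.37% of the genes tested) were higher and 410 (2.75%) were lower. With a minimum of 10 counts in every library, 438 were higher and 302 lower, so the excess of rises was smaller. The 2 mimic libraries lay on the same side of both miRcontrol libraries for 794 of the called higher genes (5.33% of the genes tested) and 408 of the lower (2.74%), and for 10999 of all genes tested (73.9%). In 57 of the called rises each miRcontrol library held at most 3 counts, and in 15 of the called falls each mimic library did, so that the size of these changes is a bound only. Without them, fitted changes of at least 4-fold were seen for 130 higher and 32 lower genes, and of at least 8-fold for 22 higher genes and 1 lower gene, KRT19. Under the study's own limits of 2-fold and 0.05 for p without adjustment, 1312 genes (8.81%) differed. An adjusted p under 0.05 without a fold limit was passed by 7594 genes (51%), of which 3828 (25.7%) were higher and 3766 (25.3%) lower, and "passed the test" below refers to this limit. The median log2 fold change over all genes was 0.004, and the middle 90% of genes lay between -0.85 and 1.14. The counts for each gene list below are to be read beside these shares of all genes.

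The higher and the lower genes differed in level. Below a mean of 1 CPM, 195 of 1916 genes (10.2%) were called higher and 70 (3.65%) lower, and from 1 to 5 CPM, 322 of 2530 (12.7%) were higher and 91 (3.60%) lower. From 20 to 100 CPM the order was turned, with 89 of 5207 genes (1.71%) higher and 125 (2.40%) lower, and from 100 CPM upward 29 of 2450 genes (1.18%) were higher and 47 (1.92%) lower. The classes rest on the mean of the 4 libraries, so the mimic level helps to set the class. The filter can also keep genes detected in the mimic group alone. In 57 called rises miRcontrol lay at the floor of 3 counts, and in 15 called falls the mimic did. The part of this in the excess of rises at low level was not tested. Of the 10 called genes of highest mean level, ACTB, VIM, LDHA, MKI67, ACTN1, EZR and FTL fell and SPARC, NT5E and CTGF rose.

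**Figure D1:**
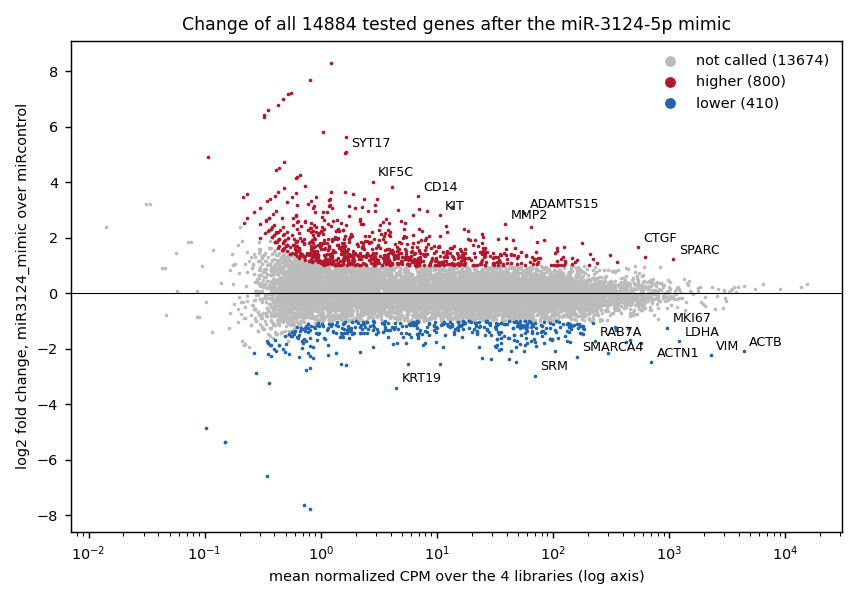
Log2 fold change of miR3124_mimic over miRcontrol (vertical axis) against the mean normalized CPM of the 4 libraries (horizontal log axis) for all 14884 tested genes, with 800 higher genes in red and 410 lower genes in blue. Rises are dense at low level, while ACTB, VIM, ACTN1 and LDHA stand out as falls at high level.

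Several well expressed genes of the actin cytoskeleton fell, while others rose. ACTB encodes beta-actin, and its level was 7169 and 7130.5 CPM in miRcontrol and 1686 and 1687 CPM in miR3124_mimic, a log2 fold change of -2.08 ± 0.0315 (SE, adjusted p = 2.35e-42, edgeR). The mimic libraries lay far below the control libraries and hardly differed from each other. ACTG1, which encodes the other cytoplasmic actin and is nearly identical in its coding sequence, moved the other way, from 5735 and 5659 to 7251 and 7092 CPM (0.33, adjusted p = 5.96e-13). Reads that fit both actins could have been counted on either, so the size of each change is uncertain, although their directions differ. ACTN1, alpha-actinin, which crosslinks actin filaments, had 1203 and 1190.2 CPM in miRcontrol and 220.2 and 206 CPM in miR3124_mimic (log2 fold change -2.49 ± 0.0395, adjusted p = 6.47e-42). EZR, ezrin, which ties actin to the plasma membrane, fell from 880.3 and 888 to 259 and 253 CPM (-1.79, adjusted p = 2.15e-37). ZYX, zyxin, a focal adhesion protein named here after its value was seen, fell from 258 and 247 to 92.7 and 95.3 CPM (-1.43, adjusted p = 1.25e-30).

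Intermediate filament genes split. VIM, vimentin, fell from 3894 and 3707 to 827 and 799 CPM, a log2 fold change of -2.23 ± 0.0343 (SE, adjusted p = 2.77e-42, edgeR), with no overlap between the groups. KRT19, a keratin of simple epithelia, had 148 and 133 counts in miRcontrol and 9 and 16 in miR3124_mimic, so that its level dropped from 8.47 and 7.94 to 0.615 and 0.905 CPM (-3.40 ± 0.239, adjusted p = 8.31e-17). The SE of KRT19 was wide beside that of VIM, as its counts in the mimic libraries were few. Of the 20 keratins listed, 9 were tested: 2 were called higher and 1 lower, and at an adjusted p under 0.05 5 were higher and 2 lower, with a median log2 fold change of 0.36. KRT81, a hair keratin, was at 1.16 and KRT17 at 1.03, while KRT8 and KRT18, the pair that forms the filaments of simple epithelia, rose by less than the 2-fold limit, KRT8 from 814 and 814 to 1135 and 1151 CPM (0.49) and KRT18 from 619 and 638 to 808 and 803 CPM (0.36).

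SRM, spermidine synthase, had the largest fall among genes of at least 5 CPM. It lies at chr1:11054584-11060024 on the minus strand of GRCh38, and its level was 125 and 122 CPM in miRcontrol and 14.9 and 16.6 CPM in miR3124_mimic, which is -2.97 ± 0.0641 (SE) on the log2 scale (adjusted p = 2.24e-36, edgeR). Spermidine synthase makes spermidine from putrescine, one of the steps of polyamine synthesis. The rest of the pathway did not move by this much: of 19 genes of polyamine metabolism tested, SRM was the only one called, and 4 were higher and 9 lower at an adjusted p under 0.05, with a median of -0.19. ODC1, ornithine decarboxylase, which makes putrescine, was at -0.25 and AMD1, which supplies the aminopropyl groups, at -0.37. SAT1, which acetylates polyamines for export and breakdown, fell by less than the 2-fold limit, with a log2 fold change of -0.66, and ENOPH1, of the methionine salvage branch, was at -0.46. SMS, spermine synthase, which uses the product of SRM, did not pass the test, at 409 and 393 and 413 and 432 CPM (adjusted p = 0.107). AZIN2, an inhibitor of antizyme, was at 0.74 (adjusted p = 0.00531), but without the second miRcontrol library its value was 0.52 (adjusted p = 0.112) and without the first mimic library 0.61 (adjusted p = 0.0675).

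The other large falls touched chromatin, signalling and little studied genes. SMARCA4, the BRG1 ATPase of the SWI/SNF chromatin remodelling complex, had 266 and 268 CPM in miRcontrol and 57.4 and 52.3 CPM in miR3124_mimic (-2.29 ± 0.0481, adjusted p = 7.79e-37, edgeR). PIK3R2, a regulatory subunit of phosphoinositide 3-kinase, fell from 80.0 and 83.3 to 15.4 and 14.3 CPM (-2.46). HMGN2, a nucleosome binding protein, fell from 501 and 483 to 110.4 and 114 CPM (-2.13), and the pseudogene HMGN2P41 was at -1.95, so reads may have been divided between copies. C20orf27 (-2.37), THAP4 (-2.36), C11orf24 (-2.33) and the histone gene HIST2H2BF (-2.56, with near-identical copies among the histone genes) completed the 12 largest falls together with AGAP2-AS1. AGAP2-AS1, an antisense RNA, fell from 18.6 and 17.9 to 3.14 and 3.06 CPM (-2.56), while AGAP2 on the opposite strand, read here after its value was seen, rose from 2.75 and 3.04 to 9.90 and 8.77 CPM (1.68). The libraries were made with a directional kit, but whether the counting used strand is not given in the sources used here, so the reads of this pair may be mixed.

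**Figure D2:**
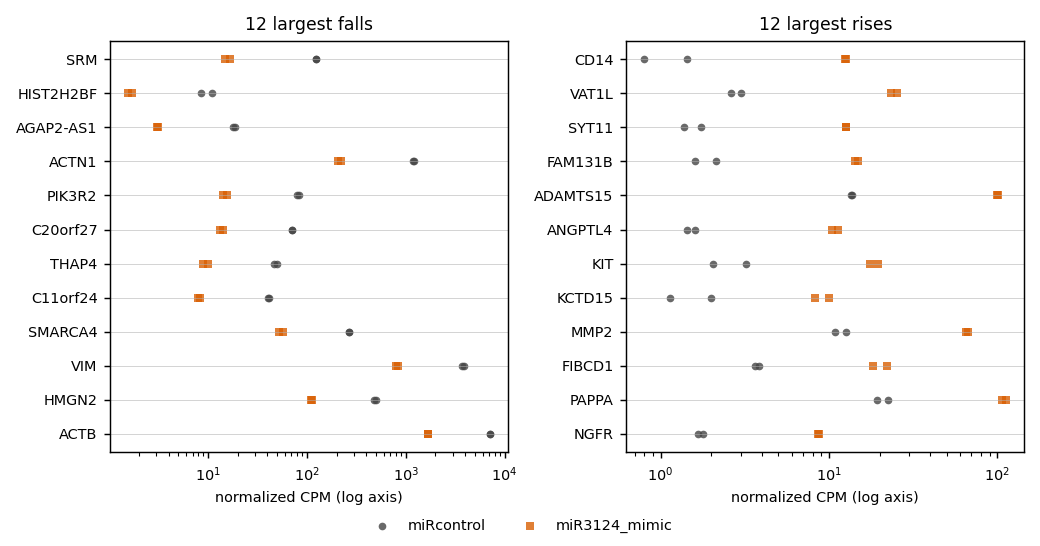
Normalized CPM (log axis) of the 12 largest falls and the 12 largest rises among genes of at least 5 CPM, one point per library, with miRcontrol in dark circles and miR3124_mimic in orange squares. The genes were chosen for groups that do not overlap, and the points show how far apart the groups lie and how close the libraries of a group are.

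The 12 largest rises included genes of secreted, cell surface and intracellular proteins. CD14, the coreceptor for bacterial lipopolysaccharide, had 0.801 and 1.43 CPM in miRcontrol and 12.7 and 12.4 CPM in miR3124_mimic, a difference of 3.49 ± 0.229 (SE) on the log2 scale (adjusted p = 7.96e-18, edgeR). ADAMTS15, a secreted metalloproteinase that cuts matrix proteoglycans, had 13.5 and 13.7 CPM in miRcontrol and 101 and 99.3 CPM in miR3124_mimic (2.89 ± 0.079, adjusted p = 3.42e-32). The mimic libraries agreed closely in both genes, whereas the levels of CD14 rest on only 14 and 24 counts in miRcontrol, beside 186 and 219 in miR3124_mimic. KIT, the receptor of stem cell factor, rose from 2.06 and 3.22 to 19.5 and 17.7 CPM (2.81). PAPPA, a secreted protease that frees insulin-like growth factor from its binding proteins, rose from 19.3 and 22.4 to 106 and 113 CPM (2.40). NGFR, the low affinity neurotrophin receptor, rose from 1.66 and 1.79 to 8.67 and 8.77 CPM (2.33), and ANGPTL4, a secreted inhibitor of lipoprotein lipase, from 1.43 and 1.61 to 10.4 and 11.4 CPM (2.84). SYT11, a synaptotagmin of vesicle trafficking, was at 3.02, VAT1L at 3.11, FAM131B at 2.96, KCTD15 at 2.54 and FIBCD1 at 2.43. All of these started from low levels in miRcontrol, PAPPA and ADAMTS15 being the highest there.

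Some genes went from near silence to clear detection. CDH5, VE-cadherin, the adhesion protein of endothelium, had 1 and 1 counts in miRcontrol and 59 and 44 in miR3124_mimic, which makes it at least 18.6-fold higher against 3 counts per control library. SYT17 had 0 and 3 counts in miRcontrol and 46 and 58 in miR3124_mimic and was at least 18.3-fold higher. SLCO2A1, the prostaglandin transporter, had 2 and 1 counts in miRcontrol and 46 and 56 in miR3124_mimic and was at least 18-fold higher. MMP9, gelatinase B, had 1 and 0 counts in miRcontrol and 26 and 41 in miR3124_mimic and was at least 11.7-fold higher. Each of these rises was present in both mimic libraries. KIF5C, a kinesin heavy chain of neurons, was not at this floor and rose from 0.343 and 0.298 to 5.12 and 5.49 CPM (4.02 ± 0.377), while of 24 motor genes tested no other was called, 8 were higher and 4 lower at an adjusted p under 0.05, and the median was 0.02. KIF5B, the kinesin heavy chain found in most cells, was at 0.26, KIF5A at 0.92, KIF3A at 0.73 and the light chain KLC3 at -0.94.

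Genes of the extracellular matrix were mostly higher. Of 38 collagen and matrix genes tested, 9 were called higher and 1 lower, and at an adjusted p under 0.05 28 were higher and 3 lower. Their median log2 fold change was 0.61 with an SD of 0.03 over the 4 pairs of a mimic and a control library, against 0.004 for all genes. SPARC, a matrix glycoprotein, had 649 and 653 CPM in miRcontrol and 1540.1 and 1522 CPM in miR3124_mimic (1.23 ± 0.0332, adjusted p = 1.86e-32, edgeR). LAMA5, a laminin chain of basement membranes, rose from 55.8 and 63.7 to 188 and 191 CPM (1.67), and COL7A1, the collagen of anchoring fibrils, from 8.81 and 8.48 to 26.5 and 26.3 CPM (1.61). COL18A1 was at 1.38 and COL15A1, from a low level of 0.401 and 0.537 CPM, at 1.96. COL4A1, a chain of basement membrane collagen, rose from 131 and 133 to 315 and 304 CPM (1.23). Not every matrix gene took part: FN1, fibronectin, which had the highest CPM, not corrected for length, of those compared here, was at 3181 and 3347 CPM in miRcontrol and 3436 and 3330.3 CPM in miR3124_mimic (adjusted p = 0.216).

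Metalloproteinases and their inhibitors were also mostly higher. Of 25 metalloproteinases and inhibitors tested, 7 were called higher and 1 lower, 20 were higher and 3 lower at an adjusted p under 0.05, and the median was 0.52. The shares of all genes, higher and lower, were 5.37% and 2.75% called, and 25.7% and 25.3% at an adjusted p under 0.05. MMP2, gelatinase A, which degrades basement membrane collagen, had 10.9 and 12.7 CPM in miRcontrol and 65.4 and 67.3 CPM in miR3124_mimic (2.49 ± 0.0904, adjusted p = 1.7e-27, edgeR). TIMP4, an inhibitor of these proteases, was at 2.27, but without the first miRcontrol library its value was 1.62 (adjusted p = 0.0661). ADAMTS6 was the member called lower, from 51.7 and 51 to 18.6 and 20.8 CPM (-1.38).

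Genes of TGF-beta signalling had a median of 0.30 over 26 tested genes, with 3 called higher and 1 lower and 13 higher and 6 lower at an adjusted p under 0.05. For all genes the shares were 5.37% called higher and 2.75% lower, and 25.7% and 25.3% at an adjusted p under 0.05. CTGF, a matricellular protein induced by TGF-beta, rose from 264 and 257 to 818 and 825 CPM (1.66 ± 0.0371). TGFBR3, the coreceptor betaglycan, rose from 8.64 and 9.43 to 33.2 and 34.7 CPM (1.91), LTBP1, which stores the latent ligand in matrix, was at 1.06, and SKI, a repressor of SMAD proteins, fell from 127 and 129 to 58.7 and 62.1 CPM (-1.08). In Notch signalling, with 17 genes tested, 4 were called higher and none lower in edgeR's test, 9 were higher and 3 lower at an adjusted p under 0.05, and the median was 0.39, which ranged from 0.25 to 0.72 over the alternatives. The receptor NOTCH3 (1.71), the ligand JAG2 (1.20), the coactivator MAML3 (1.55) and LFNG, which adds sugars to the receptor (1.30), were the 4. NT5E, the ecto-5′-nucleotidase CD73, which makes adenosine outside the cell, was also among the called genes of highest level, and rose from 367 and 352 to 903 and 882 CPM (1.31).

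**Figure D3:**
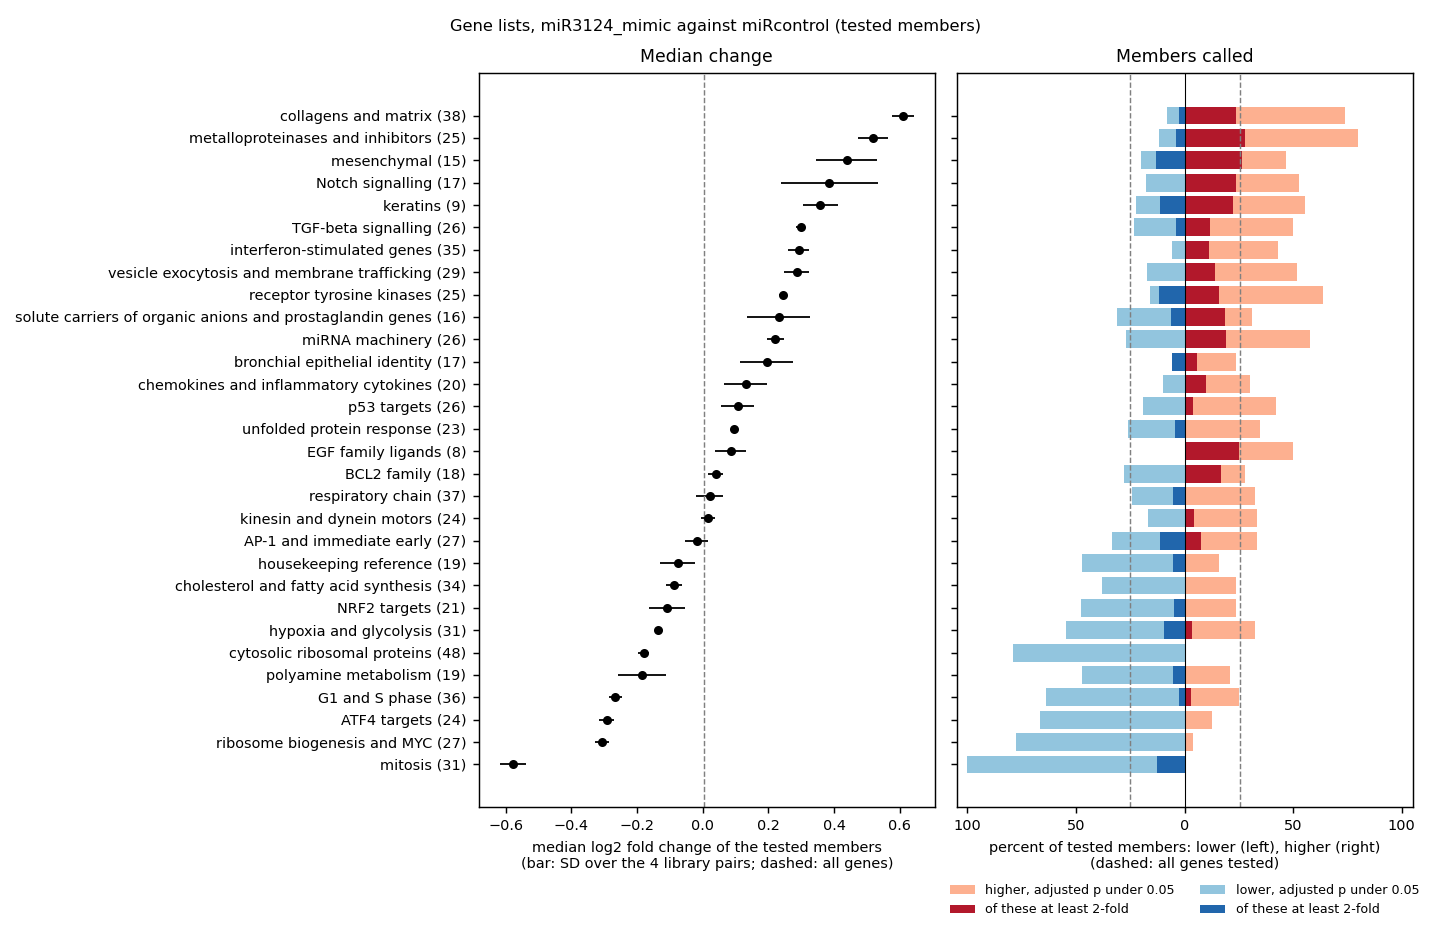
Median log2 fold change of the tested members of the gene lists shown (left, bar: SD over the 4 pairs of a mimic and a control library) and percent of tested members that were lower or higher (right, dark: at least 2-fold), with the number tested in brackets and dashed lines for all genes. The matrix list has the highest median shown, 0.61, and the mitosis list the lowest, -0.58. Not shown are the leukocyte (median 2.40, 3 tested), endothelial (3.15, 2 tested) and neuroendocrine (0.11, 6 tested) lists.

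Genes of cell division were lower. All 31 mitotic genes were tested and all 31 were lower at an adjusted p under 0.05, 4 of them at least 2-fold, with a median log2 fold change of -0.58 and an SD of 0.04 over the library pairs. MKI67, the proliferation marker Ki-67, had 1345 and 1360.3 CPM in miRcontrol and 582 and 565 CPM in miR3124_mimic (-1.24 ± 0.0342, adjusted p = 4.66e-32, edgeR). AURKA, the centrosomal Aurora kinase, fell from 266 and 264 to 111 and 106 CPM (-1.29), CENPE, the kinetochore motor, from 259 and 251 to 117 and 106 CPM (-1.19), and AURKB from 80.5 and 86.4 to 41.1 and 42.1 CPM (-1.00). In bulk RNA, fewer dividing cells and fewer of these transcripts per cell cannot be told apart. The rest of the list changed by less than the 2-fold limit, CDK1 by -0.77 and CCNB1 by -0.52. Of 36 genes of G1 and S phase, 23 were lower and 9 higher at an adjusted p under 0.05, with 1 called in each direction and a median of -0.27. RRM2, which makes deoxynucleotides, fell from 500.2 and 503 to 206 and 197 CPM (-1.32), and CCND2, a D-type cyclin, rose from 2.23 and 1.85 to 8.33 and 8.60 CPM (2.05). CCND1, the D-type cyclin of much higher level, moved against CCND2, from 1062 and 1037 to 571 and 539.8 CPM (-0.92), and E2F8 was at -0.87.

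Genes of ribosome production were lower by small amounts. Of 27 genes of ribosome biogenesis and MYC tested, none was called at 2-fold in edgeR's test, but 21 were lower and 1 higher at an adjusted p under 0.05, with a median of -0.31. PES1, of the complex that processes the large ribosomal subunit, fell just under the 2-fold limit, from 119.6 and 124 to 60.3 and 61.5 CPM (-1.00 ± 0.0502), and BOP1 of the same complex was at -0.79, NOP16 at -0.86 and RRP9 at -0.76. MYC itself was at -0.23 (adjusted p = 0.000593). Of 48 cytosolic ribosomal proteins tested, 38 were lower and none higher at an adjusted p under 0.05, with a median of -0.18 and none called at 2-fold, and RPS12 (-0.74) and RPLP1 (-0.70) had the largest changes of that list. RPS29, a ribosomal protein gene outside the list that carries the seed word, was lower than these, from 90.1 and 102 to 37.1 and 34.9 CPM (-1.41 ± 0.0665, adjusted p = 3.82e-23). Ribosomal protein genes have many processed pseudogenes, so their counts are uncertain to the extent that reads were shared.

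LDHA and FTL fell by more than 2-fold, and most ATF4 targets were lower by less than that. LDHA, which turns pyruvate into lactate, had 1858 and 1908 CPM in miRcontrol and 563 and 575 CPM in miR3124_mimic (-1.73 ± 0.0349, adjusted p = 2.15e-37, edgeR). Of 31 genes of hypoxia and glycolysis tested, LDHA, ANKRD37 and CA9 were called lower and SLC2A3, a glucose transporter, higher (2.01), with 10 higher and 17 lower at an adjusted p under 0.05 and a median of -0.14. CA9, a carbonic anhydrase, was at -1.05, and ANKRD37, at under 1.2 CPM throughout, at -1.36, though it no longer passed the test without the first miRcontrol library (-1.16, adjusted p = 0.164), the first mimic library (-1.27, adjusted p = 0.119) or the second (-1.48, adjusted p = 0.0949). FTL, the ferritin light chain, which stores iron and is a target of NRF2, fell from 675 and 744 to 217 and 227 CPM (-1.67 ± 0.0403), whereas FTH1, the heavy chain, was at -0.40. Of 21 NRF2 targets FTL was the only one called, 5 were higher and 10 lower at an adjusted p under 0.05, and the median was -0.11, with SRXN1 at -0.41 and NQO1 at 0.40. Of 24 ATF4 targets none was called at 2-fold by edgeR, 3 were higher and 16 lower, and the median was -0.29, with ATF5 at -0.79, PSAT1 of serine synthesis at -0.64, the amino acid transporter SLC7A5 at -0.60 and VLDLR at 0.66.

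The lists of lipid synthesis, the respiratory chain and the unfolded protein response had no gene called higher. Among all genes, 5.37% were called higher and 2.75% lower. Of 34 genes of cholesterol and fatty acid synthesis, none was called at 2-fold by edgeR, 8 were higher and 13 lower at an adjusted p under 0.05, and the median was -0.09. SCD, the stearoyl-CoA desaturase, was at -0.51, FASN, fatty acid synthase, at -0.45 and EBP at -0.46. Of 37 respiratory chain genes, 2 were called lower, COX5A (-1.03) and NDUFS7 (-1.03), 12 were higher and 9 lower at an adjusted p under 0.05, and the median was 0.02, with NDUFS1 at 0.54 and NDUFB7 at -0.54. In the unfolded protein response, CRELD2 was the only one of 23 genes called (-1.02), 8 were higher and 6 lower, and the median was 0.09, with DNAJB9 at 0.91, the stress sensor ERN1 at -0.52 and ATF6 at 0.36. Mitochondrially encoded genes took 3.46% and 3.66% of the counts in miRcontrol and 4.04% and 4.03% in miR3124_mimic.

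The genes of the miRNA pathway itself changed. Of 26 genes tested, 5 were called higher and none lower in edgeR's test, and at an adjusted p under 0.05 15 were higher and 7 lower, with a median of 0.22. Over all genes, 5.37% were called higher and 2.75% lower, and 25.7% were higher and 25.3% lower at an adjusted p under 0.05. DCP2, the enzyme that removes the cap of messenger RNA, had 80.2 and 78.7 CPM in miRcontrol and 279 and 278 CPM in miR3124_mimic (1.81 ± 0.0435, adjusted p = 1.79e-34, edgeR). AGO4, an Argonaute, rose from 25.3 and 22.9 to 56.8 and 56.3 CPM (1.23). TNRC6A and TNRC6B, which bind Argonaute and recruit the deadenylases, rose from 153 and 151 to 315 and 338 CPM (1.10) and from 84.7 and 80.3 to 167 and 168 CPM (1.02). TNRC6C, of much lower level, was at 1.01 (adjusted p = 0.0151). AGO1 (0.41), AGO2 (0.24), AGO3 (0.68) and DICER1, which cuts the precursor (0.78), were higher by less than 2-fold, and DROSHA, which cuts the primary transcript, was lower (-0.41).

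Among receptors, 25 receptor tyrosine kinases were tested, with 4 called higher and 3 lower, 16 higher and 4 lower at an adjusted p under 0.05, and a median of 0.24. The same shares over all genes were 5.37% and 2.75% called, and 25.7% and 25.3% at an adjusted p under 0.05. Beside KIT, PDGFRB, a receptor for platelet-derived growth factor, rose from 7.61 and 7.64 to 30.9 and 28 CPM (1.95) and MERTK from 1.89 and 2.09 to 6.83 and 6.73 CPM (1.77), while the ephrin receptor EPHA1 fell from 8.59 and 11.9 to 3.28 and 3.79 CPM (-1.52). EGFR, the receptor of epidermal growth factor, was at -0.39. Of 8 EGF family ligands, NRG2, a neuregulin, was called higher (1.80), as was EPGN (1.20), which without the second miRcontrol library was at 0.88 (adjusted p = 0.0915). TGFA was at 0.41 and HBEGF at 0.17, the latter at 0.11 (adjusted p = 0.180) without the second miRcontrol library and at 0.13 (adjusted p = 0.117) without the second mimic library. In all, 4 of the ligands were higher and none lower at an adjusted p under 0.05, with a median of 0.09.

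Of 20 chemokines and cytokines tested, 2 were called, both higher, where 5.37% of all genes were called higher and 2.75% lower. These were CCL2, which attracts monocytes, and IL11, a cytokine of the IL-6 family. CCL2 rose from 4.12 and 4.77 to 13.6 and 15.6 CPM (1.72), and IL11 from 53.5 and 50.6 to 166 and 161 CPM (1.65 ± 0.0491). At an adjusted p under 0.05, 6 of the 20 were higher and 2 lower, against 25.7% and 25.3% of all genes, so the share of rises was near that of all genes and the share of falls below it. The median was 0.13, and IL1A was at 0.90 and IL24 at 0.88. Of 35 interferon-stimulated genes, 4 were called higher and none lower by edgeR, 15 were higher and 2 lower at an adjusted p under 0.05, and the median was 0.29. PARP14 rose from 65.8 and 60.3 to 129.6 and 128 CPM (1.03) and ISG20, a ribonuclease, from 2.63 and 4.36 to 9.22 and 9.84 CPM (1.45). The other pair rest on few counts: MX1 was at 1.35, but at 1.02 (adjusted p = 0.0658) without the second mimic library, and XAF1 at 2.29, but at 1.61 (adjusted p = 0.137) without the first miRcontrol library. IFIT1, one of the most inducible interferon genes, was at 0.49.

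Genes of cell death, stress and secretion gave mixed pictures. Their counts stand beside 5.37% of all genes called higher and 2.75% lower, and 25.7% higher and 25.3% lower at an adjusted p under 0.05. Of 18 BCL2 family genes, 3 were called higher, all of them at low level: BMF (1.98) and HRK (1.80), which promote apoptosis, and BCL2A1 (1.39), which opposes it and was at 1.25 (adjusted p = 0.0545) without the second miRcontrol library. BAD, which promotes apoptosis and carries the seed word in its 3′UTR, was at -0.94. In the family, 5 were higher and 5 lower at an adjusted p under 0.05, near the shares of all genes, with a median of 0.04. Of 26 p53 targets, TP53INP1 was called higher (1.11), 11 were higher and 5 lower, and the median was 0.11, with ZMAT3 at 0.95, PLK3 at 0.83 and AEN at -0.79. Of 27 AP-1 and immediate early genes, JUND, an AP-1 subunit, fell from 82.9 and 80.5 to 23.7 and 22.5 CPM (-1.82) and the transcription factors KLF2 (-1.08) and NR4A1 (-1.08) were called lower too, while FOS (1.67) and the phosphatase DUSP6 (1.13) were called higher. There 9 were higher and 9 lower at an adjusted p under 0.05, with a median of -0.02 whose sign was not kept over the alternatives. Of 29 genes of vesicle exocytosis, 4 were called higher and none lower by edgeR, namely SYT17, SYT11, SYT12 (2.95) and STX3 (1.04), and 15 were higher and 5 lower at an adjusted p under 0.05, with a median of 0.29. Of 16 genes of organic anion transport and prostaglandins, SLCO2A1, PTGS1 (1.61) and PTGES (1.58) were called higher and PTGS2, cyclooxygenase 2, lower (-1.88), 5 were higher and 5 lower, and the median was 0.23. PTGS2 rested on 14 and 10 counts in miRcontrol and 2 and 4 in miR3124_mimic and did not pass without the first miRcontrol library (-1.65, adjusted p = 0.101) or the first mimic library (-1.60, adjusted p = 0.101).

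Genes often used as references were not all steady. Of 19 housekeeping genes tested, ACTB was the only one called, 3 were higher and 9 lower at an adjusted p under 0.05, and the median was -0.08. Over all genes 8.13% were called and 51% passed the test. The share of the housekeeping genes that was called was thus below that of all genes, and the share that passed was above it. B2M was at 0.65 and TFRC at -0.44.

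The labels describe BEAS2B as normal bronchial epithelium, and its defining markers were in part absent. KRT14, TP63, FOXA2, GRHL2 and ESRP1 had no count in any of the 4 libraries, CDH1, E-cadherin, had between 2 and 7 counts and EPCAM between 2 and 8, while KRT7, KRT8 and KRT18 had between 10684 and 20343 counts each. Of 25 epithelial markers 17 were tested, 1 was called higher and 1 lower, 4 were higher and 1 lower at an adjusted p under 0.05, and the median was 0.19. Of 21 mesenchymal markers 15 were tested, with 4 called higher and 2 lower, 7 higher and 3 lower at an adjusted p under 0.05, and a median of 0.44. These did not move as one: VIM fell, and SNAI2, a repressor of epithelial genes, fell from 23.1 and 23.3 to 11.2 and 10.2 CPM (-1.12), while TAGLN, an actin binding protein of smooth muscle, rose from 57.5 and 54.3 to 151 and 154 CPM (1.45) together with SPARC and PDGFRB. SNAI1 was at 1.62 (adjusted p = 0.00131), but at 1.06 (adjusted p = 0.126) without the second mimic library. CDH2, N-cadherin (-0.06), and ZEB1 (-0.13) did not pass the test.

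Most markers of other cell types stayed at or near the floor, but some rose. Of 10 leukocyte markers 3 were tested, CD14 and CSF1R (2.40, at least 4.56-fold higher against 3 counts per library) were called higher, NKG7 and TYROBP had no count, PTPRC, the pan-leukocyte antigen CD45, had 2 and 1 counts in miRcontrol and 0 in both mimic libraries, and the summed level of the list was 27.8 and 29 CPM in miRcontrol and 37.0 and 37.9 CPM in miR3124_mimic. CSF1R was at 2.12 (adjusted p = 0.0537) without the first miRcontrol library. CD68, a lysosomal protein found beyond leukocytes too, made up most of this sum in miRcontrol. Of 8 endothelial markers 2 were tested and both were higher at an adjusted p under 0.05, CDH5 at least 2-fold and EGFL7, a secreted protein of endothelium, from 9.04 and 10.3 to 14.8 and 16.1 CPM (0.68). VWF, von Willebrand factor, had 2 and 2 counts in miRcontrol and 9 and 8 in miR3124_mimic, ERG had no count, PECAM1, the endothelial adhesion protein CD31, had 1 or 2 counts in every library, and the sum was 9.50 and 10.9 CPM against 19.9 and 19.6 CPM. Outside this list, and chosen after their values were seen, the endothelial genes TIE1 (1.90), CD34 (2.08) and ECSCR (2.29) were called higher. Others went the other way: PTPRB (-1.23, from a mean of 123 to 52.4 CPM) and MMRN2 (-1.28, from 5.10 to 2.08 CPM) were called lower. PCDH12 (1.97) and, from the floor, CD93 were called higher as well. The endothelial genes named here thus did not move as one, and as picked genes they do not give the balance of rises and falls. The part of other cell types in the rises of CD14 and CDH5 was not tested. Of 13 neuroendocrine and small cell lung cancer markers 6 were tested and none was called at 2-fold by edgeR, 2 were higher and 1 lower at an adjusted p under 0.05, and NEUROD1, CHGA, INSM1, GRP and CALCA had no count. ENO2 was at 0.32 and UCHL1 at -0.23, the median was 0.11, with a sign that was not kept over the alternatives, and the list summed to 535 and 543 CPM in miRcontrol and 559 and 569 CPM in miR3124_mimic. YAP1 was at 0.12 (adjusted p = 0.0092) and lost its call without either miRcontrol library or the second mimic library, with adjusted p from 0.0538 to 0.096.

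Genes that carry CCCGCGA in the 3′UTR were shifted down. Of the 76 genes, 17 (22.4%) were called lower and 3 (3.95%) higher, against 318 (2.60%) and 670 (5.48%) of all 12233 genes with a 3′UTR, and 56 of them had a log2 fold change below 0. At an adjusted p under 0.05, 46 were lower and 10 higher. Their median log2 fold change was -0.41 with an SD of 0.07 over the library pairs, against 0.01 for the 11110 genes without the word or its 6-base form in the 3′UTR and without the word elsewhere in the transcript, of which 217 (1.95%) were called lower. With the word followed by an A, 18 genes had a median of -0.49 and 3 were called lower and 0 higher, and the 58 others had a median of -0.39 with 14 lower. The shorter match CCGCGA alone, in 170 genes, went with a median of -0.09 and equal counts, 12 lower and 12 higher. No test of these groups was run, and genes are not replicates of a condition.

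The 6 falls whose sites are printed above were large. RAB7A, the GTPase of late endosomes, had 359 and 345 CPM in miRcontrol and 108 and 107 CPM in miR3124_mimic (-1.72 ± 0.0436, adjusted p = 1.47e-33, edgeR). PIP5K1C, which makes a phosphoinositide of the plasma membrane, had 69.8 and 72.1 CPM in miRcontrol and 18.1 and 16 CPM in miR3124_mimic (-2.06 ± 0.0765, adjusted p = 4.05e-27). TMEM184B, with a word in the coding sequence as well, had 129 and 129.6 CPM in miRcontrol and 38.7 and 37.1 CPM in miR3124_mimic (-1.77 ± 0.0568, adjusted p = 1.39e-29). SLC25A10, the mitochondrial dicarboxylate carrier, fell from 50.8 and 49.5 to 17.3 and 14.9 CPM (-1.65), and SEMA6B, a transmembrane semaphorin, from 20.1 and 21.2 to 8.33 and 6.79 CPM (-1.46). The 3 genes with the word that rose at least 2-fold were C1QTNF1, from 6.41 and 6.68 to 20.6 and 19.8 CPM (1.62), the tubulin gene TUBB2B from 5.15 and 5.01 to 15 and 14.5 CPM (1.53, with TUBB2A, a near-identical copy, at 0.56) and NTN1, the guidance cue netrin-1, from 2.75 and 2.69 to 7.24 and 6.0 CPM (1.28).

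The word in coding sequence went with a smaller shift in many more genes. Of 499 genes with CCCGCGA in the coding sequence, 55 (11%) were called lower and 32 (6.41%) higher, 235 were lower and 116 higher at an adjusted p under 0.05, and the median was -0.22. SRM, KRT19, HIST2H2BF, PITX1 and SELENOM are among them. PITX1, a homeobox factor, fell from 57.6 and 53 to 13.8 and 13.4 CPM (-2.03) and SELENOM, a selenoprotein of the endoplasmic reticulum, from 9.16 and 7.58 to 2.60 and 2.26 CPM (-1.79), and both were chosen after their values were seen. NT5E and LAMA5, the latter with 4 copies of the word, are also among them and were called higher. Groups formed after the data were seen extend this. The 9 genes with the word in both regions, ACTN1 among them, had a median of -0.90 with 4 called lower and 1 higher, and 404 genes with the word in the 5′UTR only had a median of -0.02 with 23 (5.69%) lower and 28 (6.93%) higher.

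**Figure D4:**
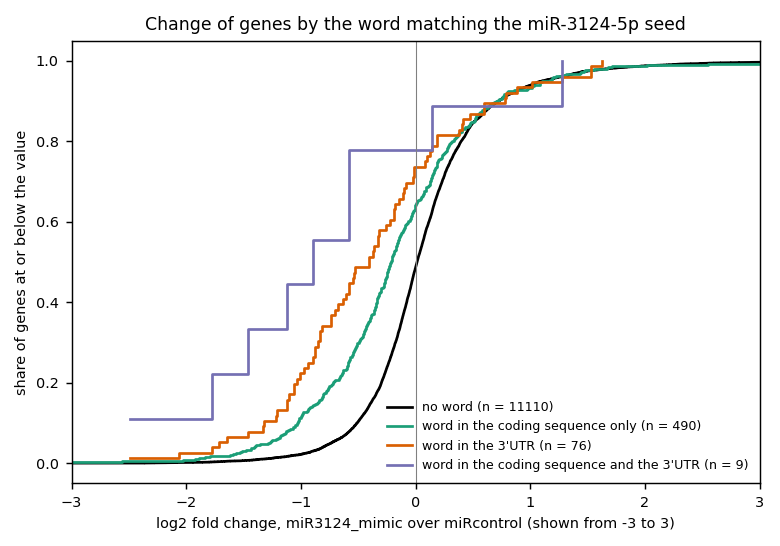
Cumulative share of genes (vertical axis) by log2 fold change of miR3124_mimic over miRcontrol (horizontal axis, shown from -3 to 3) for genes without the word CCCGCGA, with it in the coding sequence but not the 3′UTR, in the 3′UTR, and in both. The medians fall in that order, at 0.01, -0.21, -0.41 and -0.90, while the curves cross at high fold changes, with 5.37%, 6.33%, 3.95% and 11.1% of the genes called at least 2-fold higher. Genes of the coding sequence group may also carry the word in the 5′UTR, and the genes with both are part of the 3′UTR group.

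The word is rich in G and C, and so are the 3′UTRs that hold it, with a median GC content of 51.6% against 42.4% for all genes. Among genes whose 3′UTR had a GC content of at least 51.9%, the 37 genes with the word had a median of -0.58 and 11 (29.7%) called lower, while the 2614 genes without any form of it had a median of 0.003 and 93 (3.56%) called lower. Among the same GC-rich genes, 227 genes with the word in the coding sequence but not the 3′UTR had a median of -0.28 and 27 (11.9%) called lower. The words of the other miRNAs went with no such shift: 2800 genes with that of miR-3124-3p had a median of 0.04 and 50 (1.79%) called lower, and 2386 genes with that of miR-200b-3p, which was not given to these cells, had a median of 0.05 and 43 (1.80%) called lower. These 2 words hold only 3 and 2 G or C bases, and the 3′UTRs with them had a median GC content of 40.9% and 37.6%. They are not matched to CCCGCGA in composition or rarity, so they cannot show what another rare GC-rich word would do.

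The word was absent from most of the genes that fell. Of the 318 genes called lower that had a 3′UTR, 68 (21.4%) carried it in the 3′UTR or coding sequence and 250 in neither, where 566 of all genes (4.63%) carried it. Of the 12 largest falls, 11 had a transcript in the annotation and 3 carried the word there: SRM, HIST2H2BF and ACTN1. ACTB, VIM, LDHA, EZR, FTL, SMARCA4, HMGN2 and PIK3R2 did not carry it in either region, and none of the 12 largest rises did. ACTB carries 1 copy in its 5′UTR. One transcript per gene was searched, the longest coding one, which may not be the one that the cells express.

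The same mimic libraries were also compared with the other single transfections. These comparisons share the mimic libraries with the one above, and all 10 libraries set the spread of the fit, so they are not independent of it. Against miR200b_mimic, 7.64% of genes were at least 2-fold higher and 4.49% lower, and 27.9% higher and 29.9% lower at an adjusted p under 0.05 alone; against miR92b_inhibitor the values were 7.34% and 3.94%, and 29.5% and 29.4%.

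Values of single genes are given side by side. SRM was lower than in miR200b_mimic by -2.94 and than in miR92b_inhibitor by -3.16 on the log2 scale, and ACTN1 by -2.30 and -2.33. ANGPTL4, by contrast, was 0.58 against miR200b_mimic and 1.78 against miR92b_inhibitor, and NGFR 3.47 and 0.75, so that for each of them one of the differences was much smaller than the one against miRcontrol. SNAI1 passed the test in neither of these comparisons (0.72 and 0.67). In the cells that received the 3 oligonucleotides together, SRM was at 60.4 and 60.9 CPM, ACTN1 at 303 and 320.2 CPM and KIT at 4.87 and 4.79 CPM, between miRcontrol and miR3124_mimic in each case. How much of each oligonucleotide the mixture held is not given in the sources used here, and no test of this order was run.

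**Figure D5:**
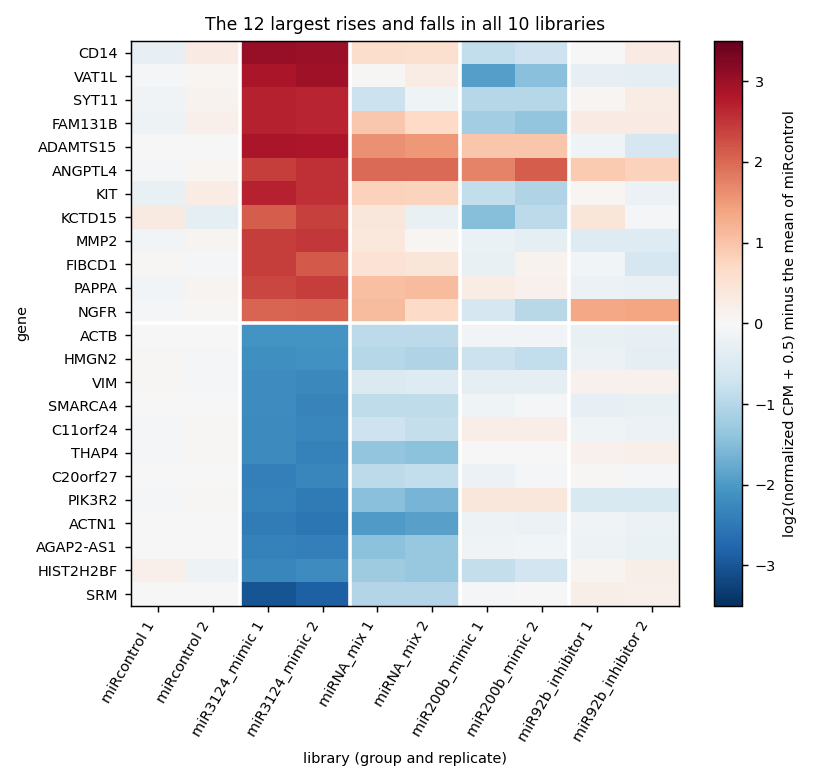
Log2(normalized CPM + 0.5) minus the mean of miRcontrol for the 12 largest rises and the 12 largest falls (rows) in all 10 libraries of the series (columns), red for higher and blue for lower. The rows were chosen for the difference between the miRcontrol and miR3124_mimic columns. The mixture columns have a weaker colour than the mimic columns, and ANGPTL4 is above miRcontrol in every other group.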

How the data were processed

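Total RNA of transfected BEAS2B cells was made into libraries with a directional kit and sequenced by the authors, who checked the reads with FastQC, trimmed them with FASTX_Trimmer and BBMap and mapped them with TopHat, per the submitters' processing notes on GRCh38. The counting tool, its annotation and its use of strand are not given in the sources used here. The authors deposited whole-number read counts for each gene, and the FPKM and geometric normalization that the methods name are not in them. The 58173 rows of a library include 5771 repeated symbols, whose counts were added up, leaving 52402 symbols.

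Genes were kept by filterByExpr, normalized by RLE (factors from 0.985 to 1.016) and tested in R 4.3.3 with edgeR 4.0.16 (and limma 3.58.1, on which it builds) by the quasi-likelihood test with p-values adjusted by the Benjamini-Hochberg method, all 10 libraries in one fit and no covariates. The common dispersion was 0.000751. The floor was 3 counts per library: a gene that did not exceed it in either library of one group was taken as lying there, and its fold change is a bound that covers counting error only. The tests were checked on simulated data. Levels are not per length, so they compare libraries and not genes.

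Seed words were searched in the 3′UTR, coding sequence and 5′UTR of the longest coding transcript per gene in GENCODE 29 on GRCh38, sense strand only. Of the tested genes, 12233 (82.2%) matched. The 6-base word is contained in the 7-base word, and genes with the latter were left out of its group. Sites from one chromosome were left out of the sites shown.

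The lists and the genes named were chosen with earlier results of these data known. The named genes were the 12 largest rises and falls of at least 5 CPM without overlap of the libraries, the 10 called genes of highest level, up to 4 genes of each list with the largest change at an adjusted p under 0.05, the 6 largest falls and 3 largest rises with the word in the 3′UTR, SRM and KRT19. Other genes are named where a result turns on them. Some genes that this rule names are not reported here. No set test was run.

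Alternatives were TMM or no normalization factors, edgeR's exact test, the Wald test of DESeq2 1.42.0, only the 4 libraries compared, no filter, a minimum of 10 counts in all libraries, the replicate number as a block, leaving out each library, and, for the words, other regions, 3′UTRs of 200 to 5000 bases and of high GC content. Replicate numbers carried no pairing.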

Additional observations from a re-analysis of the deposited data

How the results depend on the processing

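Of 144 alternative counts of genes, 137 stayed within 1.5 times the reported count. The 7 others came with a minimum of 10 counts in all libraries, which removes genes near the floor: 740 genes then differed from miRcontrol under either criterion, 438 of them higher, 1140 from miR200b_mimic and 1087 from miR92b_inhibitor, and 241 genes were at least 2-fold higher than all 3 groups, where 442 were in the comparisons as reported, which share the mimic libraries. Leaving out single libraries gave between 1163 and 1192 genes under the adjusted criterion, and the DESeq2 Wald test gave 979. Of 1777 alternative values of named genes, 1755 kept their direction and their call, 22 lost the call and none turned. A gene that an alternative filtered out, or gave no adjusted p, was not counted there. With a minimum of 10 counts in all libraries this holds for KRT19, CDH5, SYT17, SLCO2A1 and MMP9. Most named genes were chosen for passing the test in these same libraries, so that most calls were kept is partly built in. Beside the losses given above, the DESeq2 Wald test did not call MX1 (adjusted p = 0.113), ANKRD37 (adjusted p = 0.0975) or PTGS2 (adjusted p = 0.0523). Of 396 alternative list medians, 310 moved by less than the spread between libraries, and the medians of the leukocyte, neuroendocrine and AP-1 lists did not keep their sign.

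Replicate numbers carried no pairing: deviations of same-numbered libraries correlated between -0.041 and 0.0426 over 12900 genes. With the replicate block, 1215 genes differed, 804 higher and 411 lower.

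The median log2 fold change of genes with the seed word in the 3′UTR was -0.49 with the word followed by A, -0.22 when the word was sought in the coding sequence instead (499 genes, of which 9 carry it in both regions), -0.58 among 3′UTRs of at least 51.9% GC and -0.47 with 3′UTRs of 200 to 5000 bases, and between -0.48 and -0.41 when single libraries were left out. For the coding sequence, single libraries gave medians between -0.24 and -0.19. The cause of these differences was not tested. With 2 libraries per group, the depth limits genes below about 1 CPM most, and their fold changes have the widest errors.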
